A study of Mus musculus with 8 samples.

Results

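The genes described here are a set for hypoxia and glycolysis: the hypoxia-inducible factors (HIFs) and their oxygen sensors, targets of these factors, glucose transporters, and the enzymes that break glucose down to lactate. They were listed by gene symbol, with earlier results of these data known. Of 33 listed genes, 31 were found under their symbol in the platform annotation, each on 1 probe set, among 19505 genes with a symbol and 22206 probe sets. Gpi1 and Eno1 were not found under their symbols and are not analysed here. Expression was measured with 1 array per mouse in whole uterus of wild-type mice of the inbred strain C57BL/6J. Uteri were collected on day 4.5 of pseudopregnancy, the state that follows mating to a vasectomised male and gives a hormonally primed uterus without an embryo. The exposed (ecig) group comprised 4 mice that had inhaled aerosol from an electronic cigarette with 24 mg/mL nicotine in propylene glycol and vegetable glycerin (55:45, no flavouring), for 3 hours a day on 5 days a week over 4 weeks before mating and then daily to collection. The sham group comprised 4 mice that had breathed room air. The labels used here state no age. The comparison asks whether inhaled aerosol alters expression in the uterus at about the time it becomes receptive.

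Cells sense oxygen through prolyl hydroxylases that mark the HIF alpha subunits for destruction by the VHL ubiquitin ligase. When oxygen is low, the subunits persist, pair with ARNT and bind a short DNA motif in their target genes, so that the factors are controlled largely at the protein level. Their targets include most glycolytic enzymes, glucose transporters, and genes of mitophagy, pH control and vascular tone. In the rodent uterus, glucose uptake and lactate production accompany the growth of stroma around implantation. Glycolytic genes are also expressed in dividing cells without low oxygen.

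Values are log2 expression as the authors deposited them, a difference is the mean of exposed mice minus the mean of sham mice, and means are given ± SD over 4 mice. The deposited arrays share one distribution, with values from 2.75 to 13.64 and a median of 7.08 on each array. Every marker listed for the uterus was above that median in all 8 mice, among them Hoxa10, a homeobox factor of the uterus (10.87 to 11.22 in exposed and 11.01 to 11.36 in sham mice). Exposed mice 4 and 2 correlated least with the other arrays (mean r of 0.977 and 0.982, against 0.986 to 0.987 for the other arrays). Some results are also given without them, a choice made after the data were seen. In whole tissue, fewer cells of a type and less RNA per cell cannot be told apart.

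No gene of the set passed the test. Limma's test over all probe sets with Benjamini-Hochberg adjustment at 0.05 called 0 of the 31 genes higher and 0 lower, as it did for all probe sets (0.0% in either direction). At an unadjusted p under 0.05 it gave 5 of 31 genes, against 5.42% of all probe sets. The genes with higher means in exposed mice were Bnip3l and Kdm3a (2.91% of all probe sets lay in this class), and those with lower means were Higd1a, Hk2 and Ldha (2.5%). No gene had all 4 exposed values on one side of all 4 sham values, where 1.38% of all probe sets had them above and 1.35% below. The median difference over the set was -0.06, against 0.0014 over all probe sets, with 20 genes below 0 and 11 above.

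By role, and with no test of the roles against each other, the signs were as follows. Of 9 HIF targets outside glycolysis, 7 had positive differences (median 0.18), whereas 14 of 16 glucose transporters and glycolytic enzymes, Ldha included, had negative ones (median -0.16). The wider lists of the same roles did not show this split. Of 22 further HIF targets 12 were positive (median 0.02), and of 14 further glycolytic enzymes and isoforms 7 were negative (median 0.0065). Several of these enzymes and isoforms, Gapdhs, Ldhc and Pgk2 among them, lay below the array median of 7.08 in all mice. Further glucose transporters were negative in 6 of 11 (median -0.02). In neighbouring lists, 13 of 16 genes of the tricarboxylic acid cycle were negative, and 12 of 16 for lactate and pyruvate handling. For the pentose phosphate pathway and gluconeogenesis it was 7 of 11. Of all probe sets, 49.5% had negative differences. These are counts of means, and none of the genes passed adjustment. They also depend on which exposed mice are counted, since without exposed mice 2 and 4 the medians were 0.04 for the HIF targets and 0.12, 0.03 and 0.05 for glucose entry, upper and lower glycolysis.

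**Figure D1:**
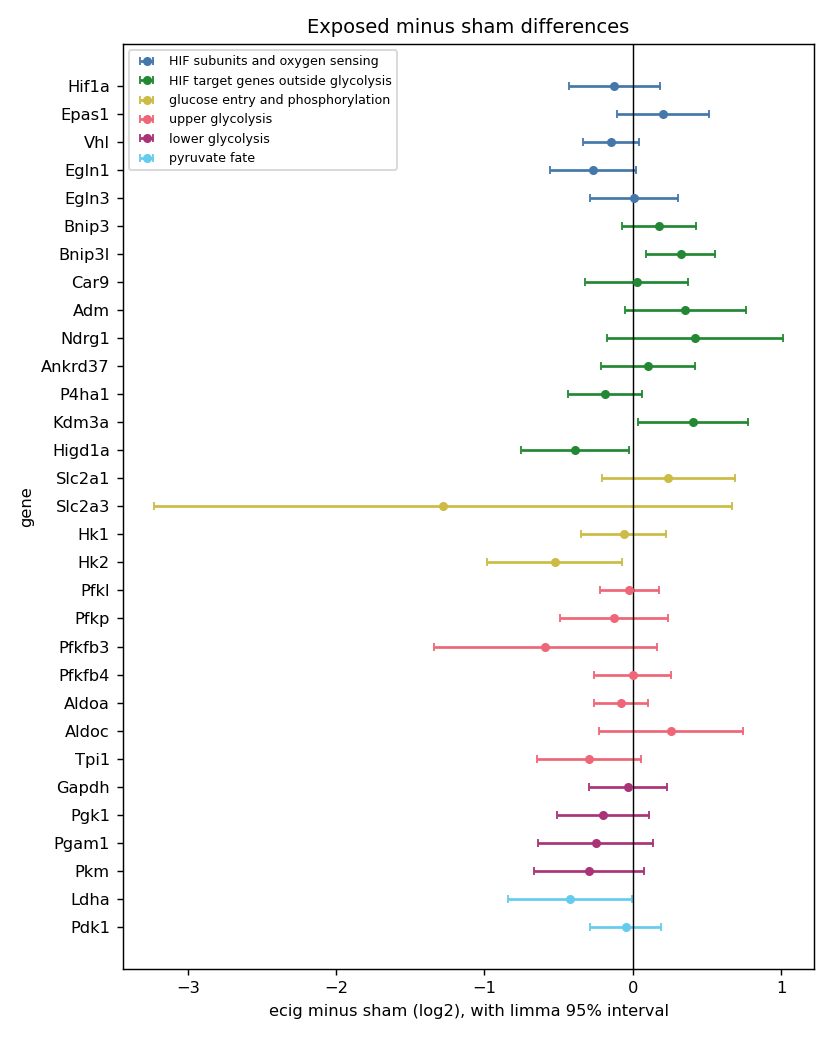
Exposed minus sham difference (horizontal axis, log2) for each of the 31 genes (vertical axis, grouped by role). Points are differences and bars are limma's 95% intervals over 4 exposed and 4 sham mice. HIF targets lie mostly to the right of 0 and glycolytic genes mostly to the left, and the intervals of Bnip3l, Kdm3a, Higd1a, Hk2 and Ldha alone leave out 0.

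The 95% intervals show what size of difference these arrays leave room for. For 18 of 31 genes the whole interval lay within a 1.5-fold difference in either direction, and for 28 it lay within 2-fold. The 3 genes whose intervals reached 2-fold were Slc2a3, Pfkfb3 and Ndrg1. For the other genes a larger average difference than 2-fold lay outside the interval.

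The promoters of the genes with an unadjusted p under 0.05 are shown because HIFs act through a 5-base core motif. The table of RefSeq promoters on build GRCm38.p6 holds 27 of the 31 genes, and Bnip3l, Epas1, Ndrg1 and Slc2a3 were not matched in it. The motif was searched as ACGTG or GCGTG on both strands, so that CACGT and CACGC count on the printed strand, and the palindrome CACGTG counts once per strand. Each sequence gives the 250 bases before the most upstream start listed, 5′ to 3′ on the strand of the gene, with matches in capitals.
Hk2, chr6:82774455-82774704, minus strand: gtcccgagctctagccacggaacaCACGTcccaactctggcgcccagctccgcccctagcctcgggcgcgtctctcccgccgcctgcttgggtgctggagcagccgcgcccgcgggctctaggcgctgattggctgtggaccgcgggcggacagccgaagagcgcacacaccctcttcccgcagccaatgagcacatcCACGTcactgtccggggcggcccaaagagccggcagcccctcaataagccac
Ldha, chr7:46845554-46845803, plus strand: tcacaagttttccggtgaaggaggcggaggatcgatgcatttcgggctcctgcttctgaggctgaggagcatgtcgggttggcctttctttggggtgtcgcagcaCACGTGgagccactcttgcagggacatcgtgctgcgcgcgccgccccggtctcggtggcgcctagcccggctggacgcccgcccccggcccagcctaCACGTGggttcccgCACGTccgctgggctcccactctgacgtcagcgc
Higd1a, chr9:121857797-121858046, minus strand: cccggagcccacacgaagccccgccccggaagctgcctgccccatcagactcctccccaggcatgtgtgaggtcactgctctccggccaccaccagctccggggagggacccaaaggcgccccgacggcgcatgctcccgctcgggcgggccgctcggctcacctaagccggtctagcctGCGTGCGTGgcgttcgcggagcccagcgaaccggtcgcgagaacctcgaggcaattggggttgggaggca
Kdm3a, chr6:71632918-71633167, minus strand: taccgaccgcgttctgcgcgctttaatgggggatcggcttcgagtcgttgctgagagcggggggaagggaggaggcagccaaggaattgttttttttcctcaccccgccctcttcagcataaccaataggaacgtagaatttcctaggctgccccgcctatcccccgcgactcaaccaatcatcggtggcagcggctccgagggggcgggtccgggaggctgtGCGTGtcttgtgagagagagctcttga
Ldha held 5 matches, of which 4 lie in 2 copies of the palindrome, and Hk2, Higd1a and Kdm3a held 2, 2 and 1. Over the set, 22 of 27 promoters held a match (81.5%), against 38.6% of 27025 promoters of the same length. The set includes genes listed as HIF targets, so the choice of genes was not independent of the motif. Promoters of the set were also richer in CG dinucleotides, which the motif contains, with a median of 17 per 250 bases against 6 over all promoters. Genes whose means were higher (Kdm3a) and lower (Hk2, Ldha, Higd1a) in exposed mice both held the motif, and a match describes the letters alone.

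Among the HIF alpha subunits and oxygen sensors, 3 of 5 genes had lower and 2 higher means, with 0 at an unadjusted p under 0.05. Hif1a, the broadly expressed alpha subunit, had 10.58, 10.09, 10.33 and 9.99 in exposed mice 1 to 4, against 10.31, 10.32, 10.59 and 10.27 in sham mice 1 to 4. Exposed mice 2 and 4 were the lowest of all 8, and exposed mouse 1 was level with sham mouse 3, the highest. The difference was -0.13 (95% interval -0.43 to 0.18). Epas1, which encodes HIF-2 alpha, another alpha subunit, had 9.19, 9.21, 9.52 and 9.47 in exposed mice and 9.29, 9.30, 9.22 and 8.76 in sham mice. Its difference of 0.20 ± 0.14 (SE) was 0.08 without sham mouse 4, the lowest of all. The mean of the endothelial markers (6 of 6 measured) was lowest in sham mouse 4 too. It deviated from the sham mean by 0.07, -0.11, 0.32 and 0.26 in exposed mice 1 to 4. In sham mice 1 to 4 it deviated by 0.305, 0.12, -0.09 and -0.34. Taken gene by gene, Tek and Tie1 were not lowest in sham mouse 4. All 6 markers had higher means in exposed mice (differences 0.0046 to 0.21), and their part in the values of Epas1 was not tested.

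Egln1 encodes PHD2, the main oxygen-sensing prolyl hydroxylase. It had 9.70, 9.64, 10.03 and 9.36 in exposed mice, against 9.93, 9.93, 9.93 and 10.01 in sham mice. Thus 3 exposed mice lay below every sham mouse and exposed mouse 3 lay above them all (difference -0.27 ± 0.13, SE). Vhl, the substrate receptor of the ligase, had 7.49, 7.36, 7.39 and 7.53 in exposed mice and 7.50, 7.63, 7.66 and 7.57 in sham mice, with 3 exposed mice below all sham mice (difference -0.15 ± 0.08, SE). Egln3, a hydroxylase gene that is itself a HIF target, differed by 0.01 ± 0.13 (SE), with exposed mouse 2 highest at 7.24 and the other exposed mice at 6.61 to 6.75.

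Of the HIF targets outside glycolysis, Bnip3l, which encodes the mitophagy receptor NIX, had the smallest p-value of the set. It had 9.39, 9.63, 9.65 and 9.76 in exposed mice, against 9.44, 9.18, 9.24 and 9.28 in sham mice. Exposed mice 2, 3 and 4 lay above every sham mouse, and exposed mouse 1 lay below sham mouse 1 alone. The means were 9.61 ± 0.15 in exposed and 9.28 ± 0.11 in sham mice, a 1.25-fold difference (limma, unadjusted p = 0.0108, adjusted p = 0.838). Of 8 erythrocyte markers, 3 were measured (Alas2, Slc4a1 and Epb42). Their average lay above every sham mouse in exposed mice 2, 3 and 4 and not in exposed mouse 1. Mean deviations were -0.02, 0.15, 0.12 and 0.43 in exposed mice 1 to 4 and -0.03 to 0.07 in sham mice. Taken gene by gene, only Alas2 showed this order. In exposed mouse 3, Slc4a1 lay below sham mouse 4, and Epb42 lay below every sham mouse. Epb42 in exposed mouse 2 lay below sham mouse 1. The signals of Alas2 (6.43 to 6.98) and Epb42 were below the array median of 7.08 in all mice. The summed log2 values of the 3 markers ran from 19.5 to 20.9 in exposed and from 19.5 to 19.8 in sham mice. All 3 markers had higher means in exposed mice, and their part in the values of Bnip3l was not tested. Bnip3, the related mitophagy receptor, had 8.64, 8.87, 8.70 and 9.06 in exposed and 8.64, 8.55, 8.56 and 8.81 in sham mice (difference 0.18 ± 0.11, SE), so that exposed mice 2 and 4 were the highest pair.

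Kdm3a encodes a histone H3 lysine demethylase. It had 7.45, 8.01, 7.61 and 8.26 in exposed mice, against 7.52, 7.30, 7.35 and 7.53 in sham mice. Again exposed mice 2, 3 and 4 lay above all sham mice, while exposed mouse 1 lay within them. Means were 7.83 ± 0.37 in exposed and 7.43 ± 0.12 in sham mice (1.33-fold, limma adjusted p = 0.838).

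Adm and Ndrg1 were highest in exposed mice 4 and 2. Adm, which encodes the vasodilator peptide adrenomedullin, had 7.91, 8.23, 7.75 and 8.46 in exposed mice and 7.95, 7.29, 7.85 and 7.83 in sham mice. The difference of 0.36 ± 0.18 (SE) was 0.21 without sham mouse 2, the lowest of all. Ndrg1, a stress-responsive gene, had 8.48, 9.38, 9.11 and 9.80 in exposed mice and 8.97, 9.18, 8.46 and 8.48 in sham mice, a difference of 0.42 ± 0.27 (SE) that was 0.22 without exposed mouse 4. The 2 groups of Ndrg1 values overlapped, with exposed mouse 1 among the lowest sham values.

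Higd1a and P4ha1 had lower means, unlike the other HIF targets. Higd1a, which encodes a small inner mitochondrial membrane protein, had 7.65, 7.05, 7.48 and 6.88 in exposed mice, against 7.58, 7.83, 7.58 and 7.63 in sham mice. Exposed mice 2, 3 and 4 lay below every sham mouse and exposed mouse 1 lay within them (7.27 ± 0.36 in exposed and 7.66 ± 0.12 in sham mice, limma adjusted p = 0.838). P4ha1, the catalytic subunit of collagen prolyl 4-hydroxylase, had 9.28, 9.10, 9.39 and 9.24 in exposed mice and 9.60, 9.32, 9.59 and 9.24 in sham mice (difference -0.19 ± 0.11, SE). Car9, a membrane carbonic anhydrase that is a classic marker of low oxygen, showed little difference in its means, at 6.18 ± 0.33 in exposed and 6.15 ± 0.12 in sham mice, with exposed mice 2 and 4 at 6.43 and 6.45 and exposed mouse 1 lowest of all at 5.74. Ankrd37, an ankyrin repeat gene induced by HIF-1 in cultured cells, differed by 0.10 ± 0.14 (SE), and without exposed mouse 4, the highest at 7.66, by -0.03.

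**Figure D2:**
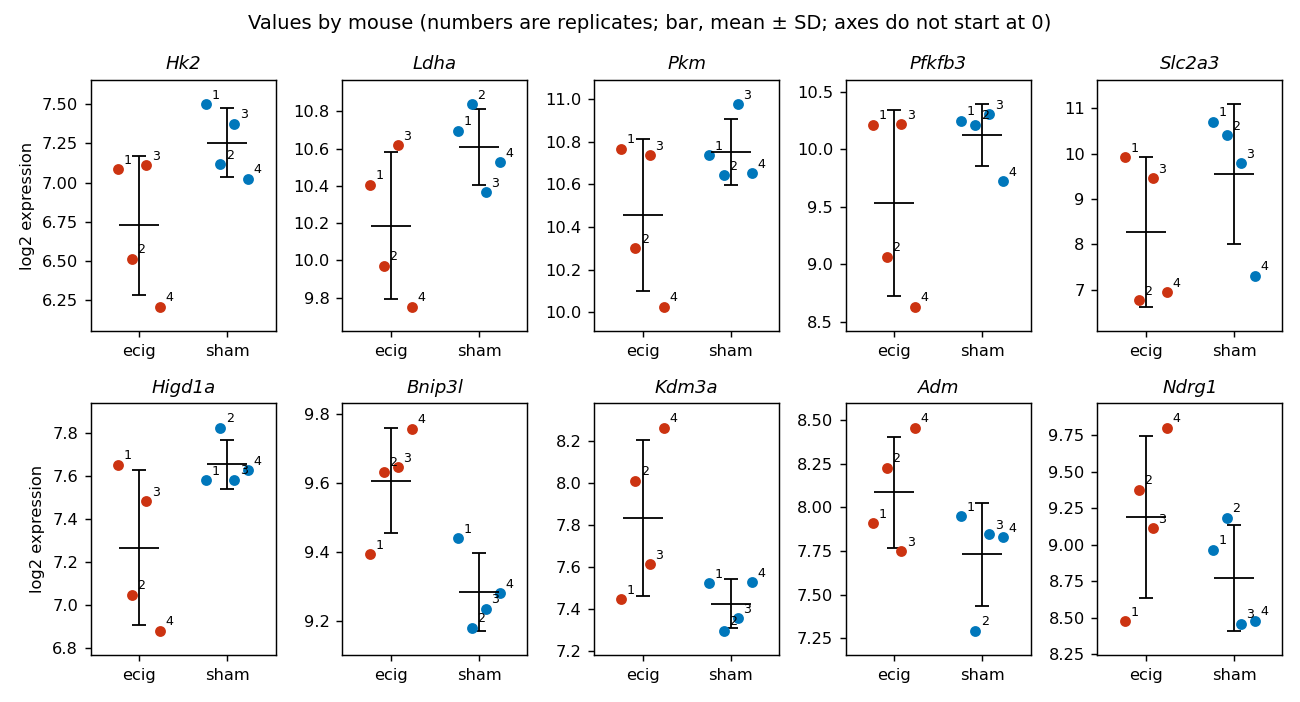
Log2 expression (vertical axes, which do not start at 0) in each of 4 exposed (left, red) and 4 sham mice (right, blue) for 10 genes, with replicate numbers beside the points and bars for mean ± SD. In Hk2, Ldha, Pkm and Pfkfb3 exposed mice 2 and 4 lie below all other mice, in Kdm3a, Adm and Ndrg1 above all other mice.

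Glucose enters by facilitative transporters and is held in the cell by hexokinase. Slc2a1, which encodes the widely expressed transporter GLUT1, had 8.70, 8.42, 9.05 and 9.51 in exposed mice, against 8.59, 8.72, 8.82 and 8.58 in sham mice. Exposed mice 3 and 4 lay above all sham mice and exposed mouse 2 below them (difference 0.24 ± 0.20, SE, and 0.04 without exposed mouse 4). Slc2a3, which encodes the high-affinity transporter GLUT3, varied most of the set, spanning a 15.3-fold range of signal over the 8 mice. It had 9.92, 6.76, 9.46 and 6.94 in exposed mice and 10.70, 10.40, 9.79 and 7.31 in sham mice. The values formed a high set, with exposed mice 1 and 3 and sham mice 1 to 3, and a low set with exposed mice 2 and 4 and sham mouse 4. Its difference of -1.28 had a 95% interval of -3.23 to 0.67, and it was -2.03 without sham mouse 4 and -0.78 without exposed mouse 2. Without exposed mice 2 and 4 it was 0.14.

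Hk2 encodes the inducible, mitochondria-bound hexokinase, and Hk1 the constitutive one. Hk2 had 7.08, 6.51, 7.11 and 6.21 in exposed mice, against 7.50, 7.12, 7.37 and 7.03 in sham mice. Exposed mice 1 and 3 lay within the sham range, next to its lower end, and exposed mice 2 and 4 lay below it. The means were 6.73 ± 0.44 in exposed and 7.25 ± 0.22 in sham mice, a 1.44-fold lower signal (limma, unadjusted p = 0.0279, adjusted p = 0.838). Hk1 differed by -0.06 ± 0.13 (SE), with exposed values from 8.67 to 9.22 and sham values from 8.89 to 9.21.

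In the upper part of the pathway, 6 of 7 genes had lower means and 0 reached an unadjusted p under 0.05. Pfkfb3 makes fructose 2,6-bisphosphate, the activator of phosphofructokinase. It had 10.21, 9.06, 10.22 and 8.63 in exposed mice, against 10.25, 10.21, 10.30 and 9.72 in sham mice. Exposed mice 1 and 3 matched sham mice 1 and 2 closely, and exposed mice 2 and 4 were the lowest pair, with sham mouse 4 next (difference -0.59 ± 0.34, SE, which was 0.09 without exposed mice 2 and 4). Tpi1, triose phosphate isomerase, had 9.56, 9.17, 9.51 and 8.79 in exposed mice and 9.59, 9.50, 9.56 and 9.55 in sham mice (difference -0.29 ± 0.16, SE). The sham mice lay within 0.1 of each other, and exposed mice 2 and 4 lay below them.

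The phosphofructokinase subunits and aldolase A differed little. The difference was -0.02 ± 0.09 (SE) for Pfkl, the liver-type subunit, and -0.13 ± 0.16 for Pfkp, the platelet-type subunit. Pfkfb4, another bifunctional regulator of fructose 2,6-bisphosphate, differed by -0.0015 ± 0.12 (SE), with exposed mouse 2 highest at 7.72 and exposed mouse 1 lowest at 7.17. Aldoa, the ubiquitous aldolase, had 10.52, 10.65, 10.73 and 10.61 in exposed and 10.71, 10.68, 10.76 and 10.69 in sham mice, with 3 exposed mice below all sham mice and a difference of -0.08 ± 0.08 (SE). Aldoc, the brain-type aldolase, went the other way, with 6.84, 7.67, 7.76 and 7.27 in exposed and 6.81, 7.12, 6.99 and 7.58 in sham mice (difference 0.26 ± 0.22, SE).

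All 4 measured genes of the lower part had lower means (median difference -0.22), and 0 reached an unadjusted p under 0.05. Pkm, pyruvate kinase, had 10.77, 10.30, 10.74 and 10.03 in exposed mice, against 10.74, 10.64, 10.98 and 10.65 in sham mice (difference -0.30 ± 0.17, SE). Pgam1, phosphoglycerate mutase, had 8.90, 8.11, 8.65 and 8.10 in exposed mice and 8.64, 8.60, 8.79 and 8.72 in sham mice (difference -0.25 ± 0.17, SE). In both genes exposed mice 2 and 4 were the lowest of all, exposed mouse 3 lay within the sham range, and exposed mouse 1 was the highest of all for Pgam1. Pgk1, phosphoglycerate kinase, showed the same order in the exposed mice, with 9.03, 8.60, 8.80 and 8.35, against 8.80, 8.92, 8.998 and 8.86 in sham mice. Gapdh, glyceraldehyde 3-phosphate dehydrogenase, had 11.54, 11.07, 11.54 and 11.30 in exposed mice and 11.34, 11.34, 11.51 and 11.38 in sham mice, so that 2 exposed mice lay above and 2 below all sham mice (difference -0.03, 95% interval -0.29 to 0.23).

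Ldha encodes lactate dehydrogenase A, which turns pyruvate into lactate. It had 10.41, 9.97, 10.62 and 9.75 in exposed mice, against 10.70, 10.84, 10.37 and 10.53 in sham mice. Exposed mice 1 and 3 lay within the sham range and exposed mice 2 and 4 below it. The means were 10.19 ± 0.40 in exposed and 10.61 ± 0.20 in sham mice, a 1.34-fold lower signal (limma, unadjusted p = 0.048, adjusted p = 0.838), and the difference was -0.28 without exposed mouse 4. Pdk1, the kinase that keeps pyruvate out of the tricarboxylic acid cycle, had 7.18, 7.18, 7.03 and 7.23 in exposed and 7.04, 7.46, 7.10 and 7.21 in sham mice (difference -0.05 ± 0.11, SE). Several of these enzymes, Gapdh, Ldha, Pgk1 and Pgam1 among them, have processed pseudogenes of near-identical sequence, and their part in the probe signal was not tested.

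**Figure D3:**
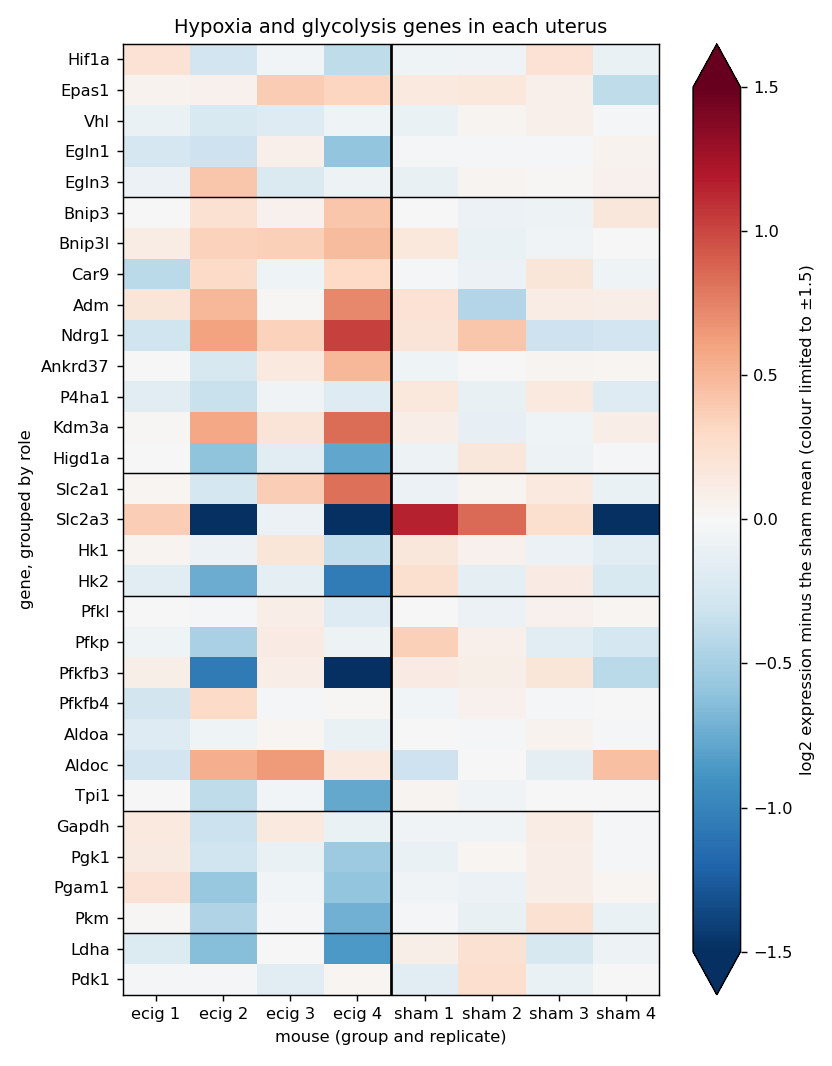
Log2 expression minus the sham mean (colour, limited to ±1.5) for each of 31 genes (rows, grouped by role, black lines between groups) in 4 exposed (left) and 4 sham mice (right). Exposed mice 2 and 4 are blue over most glycolytic genes and red over Bnip3, Adm, Ndrg1 and Kdm3a, while exposed mice 1 and 3 are pale over most genes.

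The exposed mice differed more among themselves than the sham mice did. The SD was larger in exposed mice for 27 of 31 genes, against 65.8% of all probe sets. The median SD over the set was 0.29 in exposed and 0.12 in sham mice, against 0.18 and 0.13 over all probe sets. Exposed mouse 4 gave the lowest of all 8 values for 12 genes and the highest for 8, where it was lowest for 20.2% and highest for 21.6% of all probe sets.

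Exposed mice 2 and 4 were the lowest pair of all mice for 13 of 31 genes, against 11.6% of all probe sets, and the highest pair for 5, against 12.5%. The pair was singled out after its values were seen. The 13 genes were Hif1a, Egln1, P4ha1, Higd1a, Slc2a3, Hk2, Pfkfb3, Tpi1, Gapdh, Pgk1, Pgam1, Pkm and Ldha, of which 9 are glucose transporters or enzymes of glucose breakdown. The 5 genes at the other end were Bnip3, Car9, Adm, Ndrg1 and Kdm3a, all of them HIF targets outside glycolysis. The median deviation from the sham mean over the genes of lower glycolysis was 0.15, -0.39, -0.03 and -0.57 in exposed mice 1 to 4, and over the HIF targets outside glycolysis it was -0.0019, 0.28, 0.07 and 0.47. In sham mice these medians stayed between -0.07 and 0.11 and between -0.09 and 0.10.

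The means of several lists of cell type markers also lay below the sham mean in exposed mice 2 and 4, that of dividing cells by the most. Of 8 listed markers 7 were measured, and their mean deviated from the sham mean by 0.50, -0.78, 0.02 and -1.06 in exposed mice 1 to 4 and by -0.20 to 0.14 in sham mice. The summed log2 value of the list ran from 49.95 to 60.8 in exposed and from 56.0 to 58.4 in sham mice. Cdk1, the kinase that drives entry into mitosis, had 7.30, 5.61, 6.97 and 5.21 in exposed mice, against 6.85, 6.65, 6.75 and 6.41 in sham mice. On the mean of these markers the exposed mice ranked 1 above 3 above 2 above 4, as they did for Tpi1, Pgk1, Pgam1 and Pkm. The other glycolytic genes lowest in exposed mice 2 and 4 had other orders. Hk2, Pfkfb3 and Ldha ranked 3 above 1 above 2 above 4, and Slc2a3 and Gapdh 1 above 3 above 4 above 2. The part of cell division in the glycolytic values was not tested. Smooth muscle markers (6 of 6 measured) deviated by 0.02, -0.71, 0.05 and -0.25 in exposed mice and by -0.40 to 0.17 in sham mice, with summed values of 66.2 to 70.8 in exposed and 68.1 to 71.5 in sham mice. Skeletal muscle markers (6 of 6 measured) deviated by 0.04, -0.48, -0.22 and -0.44 in exposed mice and by -0.06 to 0.04 in sham mice (summed values 37.3 to 40.3 in exposed and 39.7 to 40.4 in sham mice). Acta1 (7.29 and 7.45, against 9.21 to 9.65 in sham mice) and Tnnt3 were lowest in exposed mice 2 and 4. Ckm was highest in that pair (8.48 and 8.53, against 8.21 to 8.33 in sham mice), and Atp2a1, Myh1 and Myh4 were not low in both. Stromal markers (5 of 6 measured) deviated by 0.05, -0.49, 0.09 and -0.17 in exposed mice and by -0.14 to 0.11 in sham mice (56.2 to 59.1 in exposed and 57.97 to 59.2 in sham mice). Col1a1 and Col3a1 were lowest in exposed mice 2 and 4, whereas Dcn was highest there (13.07 and 12.97, against 12.48 to 12.91 in sham mice). Lum lay below all sham mice in exposed mouse 4 but not in exposed mouse 2, and Vim in neither.

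Other marker lists followed other mice. Adipocyte markers (5 of 6 measured) deviated by 1.06, 1.28, -0.19 and -0.02 in exposed mice and by -0.16 to 0.32 in sham mice, and were thus high in exposed mice 1 and 2 (summed values 25.3 to 32.7 in exposed and 25.5 to 27.9 in sham mice). Epithelial markers (7 of 7 measured) deviated by -0.26, 0.0016, -0.19 and -0.60 in exposed mice and by -0.16 to 0.29 in sham mice (summed values 58.8 to 63.0 in exposed and 61.9 to 65.0 in sham mice), and were lowest in exposed mouse 4. Of these, 5 had lower means and 2, Krt18 and Epcam, higher ones. Cldn7 and Krt8 were lower at an unadjusted p under 0.05 (2.5% of all probe sets). Cldn7 alone had all exposed values (7.53 to 8.14) below all sham values (8.21 to 8.42), as 1.35% of all probe sets did (limma, unadjusted p = 0.0036, adjusted p = 0.838). The part of these cell types was not tested either.

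**Figure D4:**
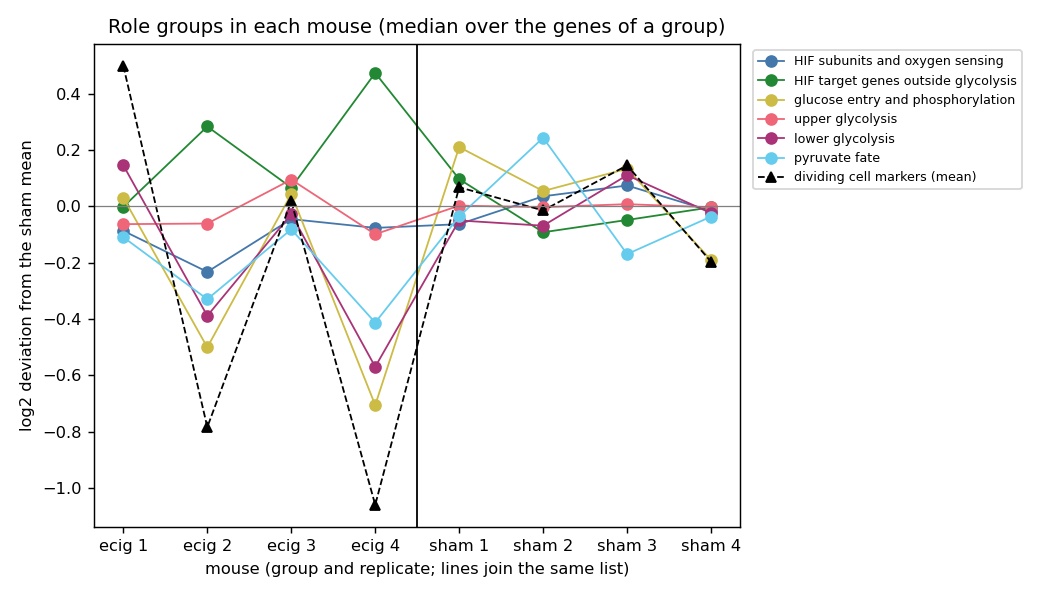
Median deviation from the sham mean (vertical axis, log2) over the genes of each role group in every mouse (horizontal axis, 4 exposed mice left, 4 sham mice right), with the mean of 7 dividing cell markers as black triangles. Lower glycolysis and dividing cell markers are lowest in exposed mice 2 and 4, where HIF targets outside glycolysis are highest.

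The counts depend on single mice. Without exposed mouse 1, 12 of the 31 genes reached an unadjusted p under 0.05, against 11.5% of all probe sets (5.42% with all mice). Of these genes, 4 had higher and 8 lower means. Bnip3l and Kdm3a were then above, and Higd1a below, all sham mice without overlap, against 10.2% of all probe sets. Without exposed mouse 3 the count was 9 (7.2% of all probe sets), and without exposed mouse 4 it was 1 (3.87%). It was 2 without exposed mouse 2 (3.69%), and also 2 without sham mouse 1 (4.04%), sham mouse 2 (3.27%) or sham mouse 3 (4.07%). Without exposed mice 2 and 4, limma's unadjusted p was under 0.05 for 0 genes (3.98% of all probe sets), and 18 of 31 differences were positive.

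Other genes of the pathway were measured as lists, with 0 genes past the adjusted threshold in any. Among 13 further HIF regulators, which include Arnt, the partner subunit, and Hif1an, the asparagine hydroxylase, 6 had higher and 7 lower means (median -0.08), and 0 reached an unadjusted p under 0.05. Arnt differed by 0.10 ± 0.08 (SE). Of 23 further HIF targets 22 were measured, 12 with higher and 10 with lower means (median 0.02), and 3 reached an unadjusted p under 0.05. These were Mxi1, a MYC antagonist, with 8.50, 9.18, 8.91 and 9.16 in exposed and 8.64, 8.21, 8.61 and 8.52 in sham mice, Epo, which encodes erythropoietin (difference 0.28 ± 0.11, SE), and Ak4, a mitochondrial adenylate kinase (-0.22 ± 0.09). The signal of Epo was low on every array (4.43 to 4.96, against an array median of 7.08). Like Bnip3l and Kdm3a, Mxi1 was above all sham mice in exposed mice 2, 3 and 4 and not in exposed mouse 1. Vegfa, the vascular growth factor and a well-known HIF target, differed by 0.06 ± 0.15 (SE).

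Of 18 further glycolytic enzymes and isoforms 14 were measured, 7 with higher and 7 with lower means (median 0.0065), and 0 reached an unadjusted p under 0.05. They include the muscle subunit Pfkm (0.05 ± 0.12, SE), the neuronal enolase Eno2 (-0.02 ± 0.11) and the heart-type lactate dehydrogenase Ldhb (0.04 ± 0.18). Of 11 further glucose transporters, 5 had higher and 6 lower means, and Slc2a5, which carries fructose, reached an unadjusted p under 0.05 (difference 0.41 ± 0.16, SE). Among 16 measured genes for lactate and pyruvate handling, 12 had lower means (median -0.06). Slc16a3, which encodes the lactate exporter MCT4, a HIF target too, had 6.51, 6.06, 5.81 and 5.64 in exposed mice, against 6.36, 6.21, 6.57 and 6.42 in sham mice, so that exposed mice 2, 3 and 4 lay below all sham mice (limma, unadjusted p = 0.0491, adjusted p = 0.838). Among the pyruvate dehydrogenase kinases, the differences were 0.29 ± 0.14 for Pdk2, -0.70 ± 0.45 for Pdk3 and 0.49 ± 0.25 (SE) for Pdk4.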

How the data were processed

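Total RNA of each uterus was hybridised to 1 array, per the labels' protocols. The authors deposited log2 values for 22206 probe sets and 8 arrays. That they are log2 is read from their range. Per the submitters' processing notes the tool was Partek, of unstated version. The sources used here do not say how background was corrected or arrays scaled. Once sorted, any array matches any other to within 0.0198, so a shift shared by all genes could not be seen. Groups came from the sample titles, and each array is 1 mouse. No scan date or batch is given there. Symbols came from the platform annotation (19572 probe sets with 1 symbol, 2634 with none), and RefSeq names of build GRCm38.p6 were used for promoters alone. For a gene with several probe sets the one with the highest mean was kept, which concerned 0 members. Differences came from lmFit and eBayes of limma 3.58.1 (R 4.3.3) over all probe sets, a fit checked on simulated arrays. All 31 genes passed a filter at the 25th percentile of means and 28 at the 50th, and the fit used no filter. All genes of the set are given, and from the wider lists those at an unadjusted p under 0.05 and some chosen for their role after their values were seen. The members and lists were chosen with earlier results of these data known. Detection above background was not assessed, so a dim probe set has no stated floor, and the number of arrays limits precision. Alternatives comprised scaling, filters, variance models, array weights, a replicate block, the mean over probe sets, leaving out each mouse, and, chosen after seeing the data, leaving out exposed mice 2 and 4.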

Additional observations from a re-analysis of the deposited data

Results flagged for a closer look

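Of 62 groups of 4 mice (31 genes, exposed and sham), 4 held 1 mouse whose gap to the nearest other value took up more of the group's range than Dixon's 95% limit for 4 samples. Chance alone gives about 1 such group in 20. All 4 were sham groups. Sham mouse 4 stood apart for Epas1 (8.763, the others 9.22 to 9.30), Pfkfb3 (9.719, the others 10.21 to 10.30) and Egln1 (10.01, the others 9.93). Sham mouse 3 stood apart for Hif1a (10.59, the others 10.27 to 10.32).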

How the results depend on the processing

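Limma's adjusted test called 0 of the 31 genes in the fit as reported and under each of 19 alternatives, and the lowest adjusted p of any gene under any of them was 0.267. Of 586 differences recomputed, 558 kept their sign. Many of these could not change, since the filters, variance models, replicate block and mean over probe sets leave a member's difference as it was. Scaling barely moved arrays that already share one distribution. All 28 reversals came with array weights or with mice left out. The count at an unadjusted p under 0.05, 5 as reported, was 3 with a filter at the 50th percentile (7.17% of all probe sets then tested), 2 without variance moderation (4.83%), and 1 to 12 with each mouse left out in turn. Genes without overlap, 0 as reported, then numbered 0 to 3, with 2 without exposed mouse 3, sham mouse 1 or sham mouse 4, 1 without exposed mouse 4, and 3 without exposed mouse 1 (4.63% to 10.2% of all probe sets). Over all probe sets the adjusted test gave 0 to 1, the 1 without exposed mouse 1. The median difference over the set ran from -0.117 to -0.0472. With a replicate block, 6 genes reached an unadjusted p under 0.05 (5.74% of all probe sets) and 0 the adjusted threshold. Same-numbered mice did not deviate together (r from -0.238 to 0.085, with 1 of 8 mice correlating best with its own number). The titles do not say whether the numbers pair the mice, and so few mice cannot settle it. With each mouse left out, differences crossed 0 for Egln3 (-0.127 to 0.084), Car9 (-0.0627 to 0.173), Ankrd37 (-0.0342 to 0.214), Hk1 (-0.140 to 0.0408), Pfkl (-0.0650 to 0.0306), Pfkfb4 (-0.0959 to 0.0888), Gapdh (-0.0917 to 0.0674) and Pdk1 (-0.0997 to 0.0389). With array weights they were 0.0103 for Pfkl and 0.0017 for Gapdh. Without exposed mice 2 and 4, a setting chosen after seeing the data, 0 genes reached an unadjusted p under 0.05, 2 did not overlap (Vhl below, Gapdh above, against 12.2% of all probe sets), and the median was 0.031. Differences of opposite sign were then 0.083 for Hif1a, -0.152 for Egln3, -0.236 for Car9, 0.139 for Slc2a3, 0.106 for Hk1, 0.052 for Pfkl, 0.031 for Pfkp, 0.093 for Pfkfb3, 0.150 for Gapdh, 0.021 for Pgk1 and 0.086 for Pgam1. The cause of these shifts was not tested.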

Other observations

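Among 16 measured genes of the tricarboxylic acid cycle, 13 had lower means in exposed mice (median difference -0.10), and 0 reached an unadjusted p under 0.05 or the adjusted threshold in limma. Their mean deviated from the sham mean by 0.04, -0.26, 0.00014 and -0.26 in exposed mice 1 to 4 and by -0.04 to 0.05 in sham mice. Cs, citrate synthase, had 9.89, 9.24, 9.81 and 9.25 in exposed mice, against 9.84, 9.74, 9.92 and 9.78 in sham mice. Mdh2, the mitochondrial malate dehydrogenase, had 9.79, 9.18, 9.92 and 9.13 in exposed mice, against 9.77, 9.83, 9.86 and 9.72 in sham mice. In both genes exposed mice 2 and 4 were the lowest pair, as for Ldha and Pkm, and exposed mice 1 and 3 lay within or above the sham range.

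Of 11 measured genes of the pentose phosphate pathway and gluconeogenesis, 4 had higher and 7 lower means (median -0.06). Fbp1, fructose 1,6-bisphosphatase, which opposes phosphofructokinase, was the 1 gene at an unadjusted p under 0.05, with 5.001, 5.13, 5.06 and 5.59 in exposed mice, against 5.11, 4.65, 4.63 and 4.596 in sham mice (limma adjusted p = 0.838). Its signal was low on every array, and 2 exposed mice lay above and 2 below sham mouse 1.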
